A study of Drosophila melanogaster with 72 samples.

Results

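Activation of the hot cell line, named HC in the series, was compared with both of its controls in brain RNA of Drosophila melanogaster. The 9 libraries labelled hot cell, of 72 in the series, were taken from the sample labels, and genes were kept where TrpA1 29C differed from each control in the same direction. The TrpA1 29C group (3 libraries) carried GAL4 and UAS-TrpA1 and was moved from 21 °C to 29 °C for the last 3 h of the night. The GAL4 control 29C group (3 libraries) carried GAL4 without UAS-TrpA1 and had the same warm shift. The TrpA1 21C group (3 libraries) is labelled with both transgenes and was kept at 21 °C. All were dissected at ZT0, the time of lights on, each library from a pool of 15 brains. The labels call the line wake-promoting. The names of the groups are those of the labels throughout. Sex, age and the GAL4 driver's insertion are not given in the sources used here. Whether pools came from separate crosses or vials is not given either, so p-values measure the spread between these pools. GAL4 control 29C shares the temperature of the activated flies and TrpA1 21C their labelled genotype. Against the first, carrying the channel, any other difference in genetic background and being activated cannot be told apart. Against the second, warmth and activation cannot be told apart.

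Hot cell neurons are warm-sensing neurons of the fly's arista, an appendage of the antenna, and send their axons into the brain. Their cell bodies lie outside the brain, so a dissected brain holds their terminals and the circuits that they drive. TrpA1 is a cation channel that opens with warmth, and GAL4 places it in chosen cells, which fire when the fly is warmed. Warmth itself induces chaperones, proteins that keep other proteins folded, in fly cells through the heat shock factor Hsf. Vectors that carry a transgene usually also carry a copy of white (w), an eye-colour gene, as a visible marker.

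Library totals ran from 6454649 to 10951122 estimated counts, and 10509 to 11148 genes had a count. Totals were 10376852 to 10951122 in TrpA1 29C and 6454649 to 8016021 in GAL4 control 29C, without overlap. In TrpA1 21C they were 7535168 to 10430474. What this difference in depth does to genes with low counts was not tested. The TrpA1 21C libraries stood apart in composition. Mitochondrially encoded transcripts made up 3.37% to 4.93% of their counts, against 2.29% to 2.66% in GAL4 control 29C and 1.75% to 2.33% in TrpA1 29C. The shortest 25% of genes took 8.26% to 13.4% there and 6.10% to 7.19% in the other 6 libraries. Replicates of TrpA1 21C also differed most from each other, with a chi-square of 22.4 to 37.0 per gene against 3.71 to 9.16 in the other groups, and no pair of libraries was a duplicate. Neuron markers summed to 11422 to 12271 CPM (counts per 1000000 after TMM scaling) in TrpA1 29C, and 11305 to 11871 CPM and 9109 to 11255 CPM in GAL4 control 29C and TrpA1 21C. The antenna list was near absent, with 3 of its 12 markers tested and sums of 7.21 to 13 CPM in the 9 libraries. In such bulk samples, fewer cells of a type and less RNA per cell cannot be told apart.

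The channel's own transcript was read first and set beside the labels. TrpA1 stood at 24.9, 25.5 and 28.7 CPM in the TrpA1 29C libraries, at 13.8, 9.90 and 10.8 CPM in GAL4 control 29C and at 15.6, 12.2 and 13.3 CPM in the libraries labelled TrpA1 21C. The activated libraries thus lay above all 6 others, and both control groups overlapped. TrpA1 rose by a log2 of 1.19 (SE 0.151, edgeR adjusted p = 0.00225) against GAL4 control 29C and by 0.94 (SE 0.146, edgeR adjusted p = 0.00084) against the libraries labelled TrpA1 21C, but those controls did not differ by the test (-0.25, SE 0.158, edgeR adjusted p = 0.229). The TrpA1 level therefore does not mark the libraries labelled TrpA1 21C as carriers of the transgene. These counts sum the native gene and the transgene. The transgene's share of them was not measured, and whether the flies labelled TrpA1 21C carried it was not tested.

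Other transcripts did separate the GAL4 control from both groups labelled TrpA1. White read 15.3, 16.9 and 18.8 CPM in TrpA1 29C and 15.1, 19.9 and 20.0 CPM in TrpA1 21C, against 4.04, 4.4 and 2.66 CPM in GAL4 control 29C. The first pair of groups overlapped, and the third lay below both (log2 2.21 for TrpA1 29C against GAL4 control 29C, edgeR adjusted p = 0.000176). Yellow (y), a cuticle pigment gene used as a body-colour marker, read 14.3, 15.2 and 14.9 CPM in TrpA1 29C, 11, 9.13 and 3.23 CPM in TrpA1 21C, and 2.09, 0.942 and 1.01 CPM in GAL4 control 29C. Its 3 groups did not overlap, although TrpA1 21C spread widely and did not pass against TrpA1 29C (edgeR adjusted p = 0.0539).

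The widest gap was in mthl8, a receptor gene of the methuselah-like family. It had 0 counts in every GAL4 control 29C library, and read 123, 134 and 131 CPM in TrpA1 29C and 91.8, 89.3 and 95.1 CPM in TrpA1 21C. Taking a floor of 3 counts over the GAL4 control group, 0.136 CPM, mthl8 was at least 953-fold higher in TrpA1 29C and at least 677-fold higher in TrpA1 21C. CG6142 stood at 12.1 ± 0.510 and 12.8 ± 1.07 CPM in TrpA1 29C and TrpA1 21C and at 1.99 ± 0.228 CPM in GAL4 control 29C (SD, n = 3 each). IntS12, a subunit of the Integrator complex that processes nuclear RNA, stood at 30.8 ± 1.86, 45.0 ± 5.23 and 5.59 ± 1.71 CPM in the same order of groups. AstC-R1, a receptor for the neuropeptide allatostatin C, went the other way, at 40.8 ± 6.07, 39.1 ± 2.40 and 83.6 ± 8.39 CPM. By w, mthl8, CG6142, IntS12 and AstC-R1, singled out for this pattern, the libraries labelled TrpA1 21C lay nearer to TrpA1 29C than to the GAL4 control, while by TrpA1 itself they did not.

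**Figure D1:**
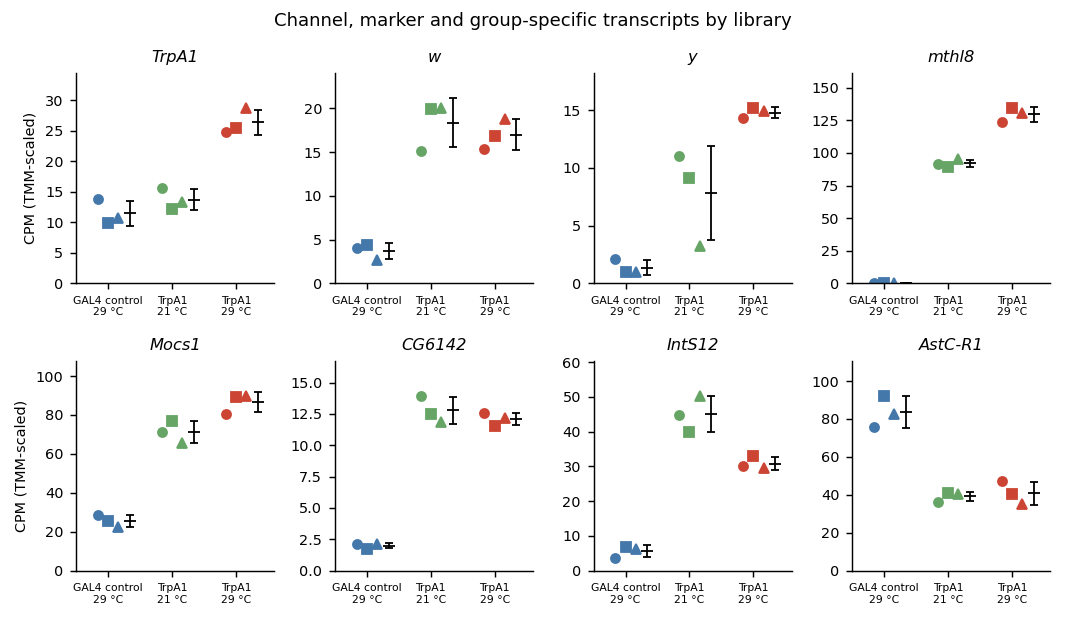
Each panel gives 1 gene's TMM-scaled CPM (vertical axis, from 0) in the 9 libraries by group, with circles, squares and triangles for replicates 1 to 3 and bars for the mean and SD. TrpA1 is high in TrpA1 29C alone, while w, mthl8, Mocs1, CG6142 and IntS12 are high in both groups labelled TrpA1 and AstC-R1 in the GAL4 control alone.

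Against the control at the same temperature few genes were called in the fit of all 3 groups. Of 8797 genes tested, edgeR called 87 (0.989%) between TrpA1 29C and GAL4 control 29C at an adjusted p under 0.05, with 42 higher (0.477%) and 45 lower (0.512%). Against TrpA1 21C it called 2943 (33.5%), with 1394 higher (15.8%) and 1549 lower (17.6%). Between the controls, which differ in temperature and in the labelled transgene, it called 2934 (33.4%), with 1391 higher (15.8%) and 1543 lower (17.5%) in the warm control. Fits on log2 TPM, a scale that corrects for transcript length, had no TMM scaling. In these fits the median of all genes shifted by 0.18 to 0.32 against TrpA1 21C. There 88.2% to 88.8% of calls were higher, in place of 47.4%. With an offset for transcript length and TMM scaling, that median was -0.0045 and 48.2% of calls were higher. On log2 TPM, the share of higher calls was 87.5% to 87.8% between the controls, in place of 47.4%. Against GAL4 control 29C it was 60% to 74.1%, in place of 48.3%. Both comparisons share the TrpA1 29C libraries.

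Called against both controls with the same sign were 46 genes (0.523%), 24 higher (0.273%) and 22 lower (0.25%). Of the higher genes, 23 had all TrpA1 29C libraries above all 6 controls, and all 22 lower genes had them below. Over all genes tested, that separation was met by 502 above (5.71%) and 441 below (5.01%). The 46 genes were called on these same libraries, so such separation follows largely from the call and is no separate support. The smaller of both changes had a median log2 size of 0.635 among the higher genes and 0.461 among the lower ones, and 4 genes in each direction differed at least 2-fold from both controls. The controls did not differ by the test for 29 of the 46, which include grass, stv, path, pdgy, Cyp6w1 and rl. For 10 higher and 2 lower genes the warm GAL4 control lay between both groups labelled TrpA1 and also passed against TrpA1 21C. TrpA1, mthl8 and Mocs1 are themselves among the 24 higher genes.

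The count moved with single libraries. It was 10, 18 and 10 without GAL4 control replicates 1, 2 and 3. Without TrpA1 29C replicates 1, 2 and 3 it was 7, 53 and 10. Without TrpA1 21C replicates 1, 2 and 3 it was 38, 66 and 232. Against GAL4 control 29C alone, the count of 87 became 22, 29 and 20, then 18, 75 and 22, then 94, 112 and 460. That is the same order of omissions. The count was 597 when the TrpA1 21C libraries were kept out of the fit. Cyp6w1 and CG33296 were called against both controls in all 21 alternative settings, and TrpA1, grass and mthl8 in 20.

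**Figure D2:**
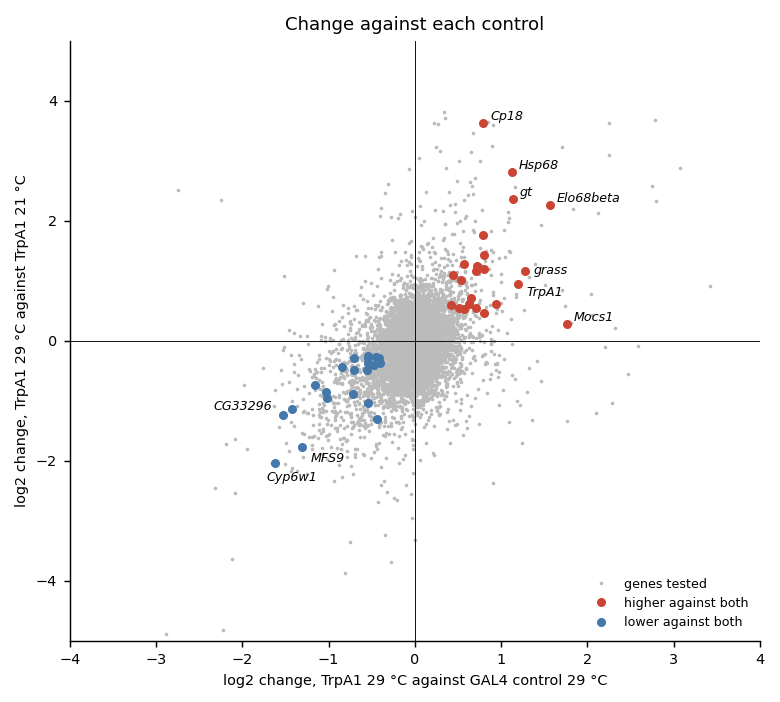
Each point is a gene at its log2 change in TrpA1 29C against GAL4 control 29C (horizontal) and against TrpA1 21C (vertical), grey for all genes tested, red for those higher and blue for those lower against both controls. Of the coloured genes, Cp18, Hsp68, gt and Elo68beta lie farthest up and Cyp6w1, MFS9 and CG33296 far down to the left. The axes leave out 9 genes, among them mthl8, the only coloured gene not shown.

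Chaperones and their partners stood among the higher genes. Hsp68, an inducible member of the Hsp70 family, read 143, 86.4 and 118 CPM in TrpA1 29C, 45.4, 56.4 and 57.5 CPM in GAL4 control 29C and 17.8, 15.0 and 16.5 CPM in TrpA1 21C. Its 3 groups did not overlap. Hsp68 rose by a log2 of 1.13 (SE 0.16, edgeR adjusted p = 0.006) against GAL4 control 29C and by 2.81 (SE 0.175, edgeR adjusted p = 1.02e-06) against TrpA1 21C. The warm control was itself above TrpA1 21C by 1.69 (edgeR adjusted p = 7.75e-05).

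Hsc70Cb, the fly Hsp110 that recharges Hsp70 with nucleotide, read 410, 247 and 349 CPM in TrpA1 29C, 177, 193 and 206 CPM in GAL4 control 29C and 159, 143 and 139 CPM in TrpA1 21C. It rose by 0.80 (SE 0.149, edgeR adjusted p = 0.0284) and 1.19 (SE 0.150, edgeR adjusted p = 0.000251) against them. Starvin (stv), a BAG-domain co-chaperone of Hsp70, read 171, 142 and 168 CPM in TrpA1 29C, 72.1, 93.8 and 84.9 CPM in GAL4 control 29C and 116, 122 and 77.8 CPM in TrpA1 21C. Here the controls overlapped, and stv rose by 0.94 and 0.61 (edgeR adjusted p = 0.0207 and 0.0114). Hsp67Bc, a small heat shock protein that works with starvin, rose by 0.71 and 0.55 (edgeR adjusted p = 0.0433 and 0.0124).

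Subunits of CCT, the ring-shaped chaperonin that folds actin and tubulin, were also higher. CCT8 (listed as CG8258) read 178, 129 and 155 CPM in TrpA1 29C, 98.7, 106 and 107 CPM in GAL4 control 29C and 62.6, 59.0 and 69.9 CPM in TrpA1 21C. Its groups lay in that order without overlap, and it rose by 0.57 (edgeR adjusted p = 0.034) and 1.27 (edgeR adjusted p = 1.70e-05). CCT2 (CG7033) rose by 0.44 and 1.10, and CCT4 (CG5525) by 0.57 and 0.52, also past the threshold in edgeR. Cdc37, which brings protein kinases to Hsp90, rose by 0.81 and 0.47, but its lowest TrpA1 29C library, at 69.7 CPM, overlapped TrpA1 21C, whose highest was 70.0 CPM. The transcription coactivator mbf1 read 253, 181 and 223 CPM in TrpA1 29C, 137, 157 and 157 CPM in GAL4 control 29C and 112, 107 and 107 CPM in TrpA1 21C, and rose by 0.54 and 1.01 (edgeR adjusted p = 0.0433 and 9.83e-05).

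**Figure D3:**
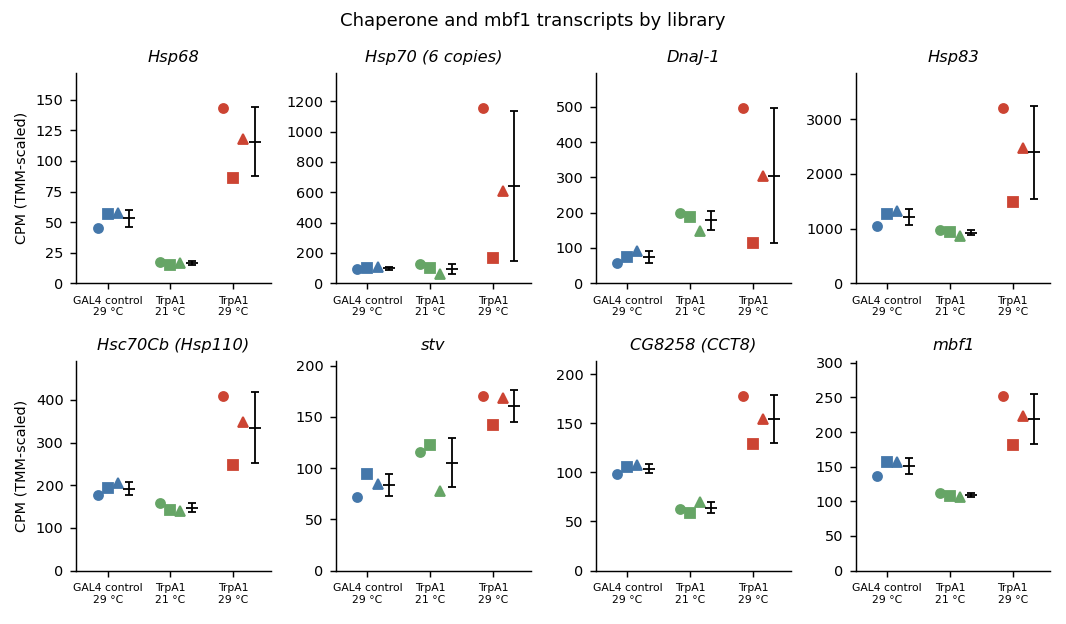
TMM-scaled CPM (vertical axis, from 0) of 7 chaperone readouts and mbf1 in the 9 libraries by group, with circles, squares and triangles for replicates 1 to 3 and bars for the mean and SD. Replicate 2 of TrpA1 29C, the square, is the lowest of its group in all 8 panels and, for DnaJ-1, falls below TrpA1 21C.

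Of 16 Hsp90 and CCT genes tested, 3 rose and 0 fell against GAL4 control 29C, 14 rose and 0 fell against TrpA1 21C, and 12 had all TrpA1 29C libraries above the 6 controls. The same shares over all genes were 0.477%, 15.8% and 5.71%. Their median log2 difference was 0.45 and 0.84, against 0.00 and -0.03 over all genes tested. In the warm control, 10 of the 16 were higher and 0 lower than in TrpA1 21C, at a median log2 of 0.44. Over all genes, 15.8% were higher there. Hsp83, the fly Hsp90, read 3201, 1493 and 2480 CPM in TrpA1 29C, 1051, 1273 and 1315 CPM in GAL4 control 29C and 971, 934 and 870 CPM in TrpA1 21C. All activated libraries were the highest, yet Hsp83 passed only against TrpA1 21C (1.37, edgeR adjusted p = 0.0017) and not against GAL4 control 29C (0.98, SE 0.221, edgeR adjusted p = 0.0779). The 3 calls of the list against GAL4 control 29C became 10 with DESeq2 and 0 with the replicate block. They became 0 without any 1 of the GAL4 control libraries or without TrpA1 29C replicate 1 or 3, 7 without TrpA1 29C replicate 2, and 1 and 10 without TrpA1 21C replicates 1 and 3.

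Of 16 inducible heat shock genes tested, Hsp68, stv and Hsp67Bc rose against GAL4 control 29C and 0 fell, and 9 rose against TrpA1 21C, beside 0.477% and 15.8% of all genes. In the warm control, 4 were higher and 1 lower than in TrpA1 21C, beside 15.8% and 17.5% of all genes. The 3 calls against GAL4 control 29C became 0, 2 and 1 without GAL4 control replicates 1, 2 and 3. Without TrpA1 29C replicates 1, 2 and 3 they became 1, 7 and 1. They were 8 with DESeq2 and 2 with the replicate block. The 6 near-identical copies of Hsp70, among which counts may be split wrongly, were summed. They reached 1154, 167 and 609 CPM in TrpA1 29C, 91.3, 98.3 and 110 CPM in GAL4 control 29C and 124, 101 and 60.7 CPM in TrpA1 21C. No copy passed against GAL4 control 29C. The Hsp40 gene DnaJ-1 read 496, 115 and 304 CPM in TrpA1 29C, 57.0, 74.5 and 91.2 CPM in GAL4 control 29C and 199, 189 and 148 CPM in TrpA1 21C, and passed in neither comparison (edgeR adjusted p = 0.158 and 0.277). The small heat shock genes Hsp22, Hsp23 and Hsp26 rose against TrpA1 21C, by 2.64, 2.87 and 2.43, and so did the warm control, by 2.00, 2.51 and 1.81. They stood at log2 0.65, 0.36 and 0.62 against that control and did not pass. Hsf itself read 118 ± 5.88, 111 ± 11.7 and 123 ± 6.76 CPM in TrpA1 29C, GAL4 control 29C and TrpA1 21C (SD, n = 3 each) and passed in no comparison. Among the 24 higher genes of both comparisons, TrpA1 29C replicate 2 was the lowest of its group for 20 and replicate 1 the highest for 19.

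The other higher genes had varied roles. Grass, a serine protease upstream of the Toll immune receptor, read 27.9, 19.0 and 21.8 CPM in TrpA1 29C, 8.22, 10.4 and 9.87 CPM in GAL4 control 29C and 8.89, 9.84 and 12.1 CPM in TrpA1 21C. Every activated library was above every control, and the controls overlapped. Grass rose by a log2 of 1.28 (SE 0.179, edgeR adjusted p = 0.00545) and 1.16 (SE 0.174, edgeR adjusted p = 0.000674). It was the only one of 23 Toll and Imd genes tested that was called against GAL4 control 29C, where 0.989% of all genes were.

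Giant (gt), a bZIP transcription factor known from embryo patterning, read 103, 66.4 and 90.3 CPM in TrpA1 29C, 29.5, 44.9 and 44.0 CPM in GAL4 control 29C and 18.6, 18.3 and 13.7 CPM in TrpA1 21C. It rose by 1.13 and 2.35 (edgeR adjusted p = 0.0214 and 1.71e-05). Elo68beta, a fatty acid elongase gene, was low but separate at 3.31, 3.13 and 4.11 CPM against 0.942 to 1.52 CPM and 0.586 to 0.820 CPM in the controls, and rose by 1.57 and 2.27 (edgeR adjusted p = 0.0485 and 0.000769). Of 17 lipid synthesis and storage genes tested it was the only one called against GAL4 control 29C, where 0.989% of all genes were.

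Cp18, an eggshell protein gene, read 29.6, 18.9 and 23.2 CPM in TrpA1 29C, 12.9, 14.3 and 14.2 CPM in GAL4 control 29C and 1.86, 1.99 and 1.94 CPM in TrpA1 21C. Most of its gap was between the controls, at a log2 of 2.83, while TrpA1 29C stood above the warm control by 0.79 (edgeR adjusted p = 0.0433). The zinc finger gene Sry-delta rose by 0.63 and 0.62. Ebd1, a partner of Armadillo in Wnt signalling, rose by 0.51 and 0.55. Mocs1, needed to make the molybdenum cofactor, read 80.6, 89.2 and 90.0 CPM in TrpA1 29C, 71.4, 76.8 and 65.7 CPM in TrpA1 21C and 28.4, 25.6 and 22.4 CPM in GAL4 control 29C. It met the rule, but its step against TrpA1 21C was small, at 0.28 (edgeR adjusted p = 0.0469).

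Among the lower genes, Cyp6w1 changed most. This cytochrome P450, of an enzyme family that oxidises toxins and hormones, read 4.73, 5.87 and 8.22 CPM in TrpA1 29C, 19.8, 18.2 and 19.7 CPM in GAL4 control 29C and 31.7, 23.4 and 21.8 CPM in TrpA1 21C. Its highest activated library was under 9 CPM and its lowest control 18.2 CPM. Cyp6w1 fell by a log2 of 1.61 (SE 0.203, edgeR adjusted p = 0.00225) and 2.03 (SE 0.199, edgeR adjusted p = 3.90e-05). Of 45 P450 genes tested, it was the only one called against GAL4 control 29C, where 0.989% of all genes were.

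CG33296 is named without a role here. It read 25.3, 42.6 and 42.8 CPM in TrpA1 29C, 108, 87.8 and 102 CPM in GAL4 control 29C and 80.4, 75.2 and 87.6 CPM in TrpA1 21C, which is a fall by 1.43 and 1.13 with no overlap (edgeR adjusted p = 0.00208 and 0.000769). Path, Gat, MFS9, Orct and Picot are transporter genes, a grouping made after their values were seen. Pathetic (path), an amino acid transporter, read 33.8, 52.0 and 44.0 CPM in TrpA1 29C, 99.9, 81.0 and 84.4 CPM in GAL4 control 29C and 87.0, 69.6 and 77.1 CPM in TrpA1 21C. It fell by 1.03 and 0.85 (edgeR adjusted p = 0.00556 and 0.00146), and its controls overlapped. MFS9, of the major facilitator family of transporters, fell by 1.31 and 1.77 (edgeR adjusted p = 0.0433 and 0.000904). Orct, an organic cation transporter, fell by 0.84 and 0.44, and Picot, of the phosphate cotransporter family, by 0.45 and 0.27.

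Gat, which takes up GABA into glia, read 249, 256 and 279 CPM in TrpA1 29C, 429, 337 and 371 CPM in GAL4 control 29C and 544, 549 and 519 CPM in TrpA1 21C. The 3 groups did not overlap, and Gat fell by 0.54 (edgeR adjusted p = 0.0269) and 1.04 (edgeR adjusted p = 3.23e-05). The innexin gene Inx3, which builds gap junctions, had the same order, at 30.3, 32.0 and 34.7 CPM, then 44.5, 43.7 and 42.9 CPM, then 79.7, 82.4 and 78.8 CPM, and fell by 0.43 and 1.31. For both genes the warm control was also below TrpA1 21C past the threshold, by 0.50 and 0.88. Gat was the only one of 16 transmitter synthesis and transport genes called against GAL4 control 29C, where 0.989% of all genes were. It is also on the glia list, which summed to 3992 to 4055 CPM in TrpA1 29C. That list's sums were 4066 to 4493 CPM in GAL4 control 29C and 5114 to 5332 CPM in TrpA1 21C.

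Other lower genes act in signalling and metabolism. Rolled (rl), the ERK kinase of the Ras pathway, read 229, 219 and 213 CPM in TrpA1 29C, 351, 311 and 309 CPM in GAL4 control 29C and 324, 303 and 297 CPM in TrpA1 21C. Rl fell by 0.55 (SE 0.0836, edgeR adjusted p = 0.00904) and 0.48 (SE 0.0834, edgeR adjusted p = 0.00151), with overlapping controls. Pudgy (pdgy), an acyl-CoA synthetase that prepares fatty acids for oxidation, read 70.2, 75.9 and 65.9 CPM in TrpA1 29C, with means of 116 ± 15.7 CPM in GAL4 control 29C and 132 ± 12.7 CPM in TrpA1 21C (SD, n = 3 each), and fell by 0.71 and 0.90 (edgeR adjusted p = 0.00975 and 0.000191). REPTOR, a transcription factor that acts when TOR signalling is low, fell by 0.54 and 0.29, and Myoglianin (myo), a TGF-beta ligand, by 0.47 and 0.40. Achilles (Achl, listed as CG17386) fell by 1.53 and 1.24.

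**Figure D4:**
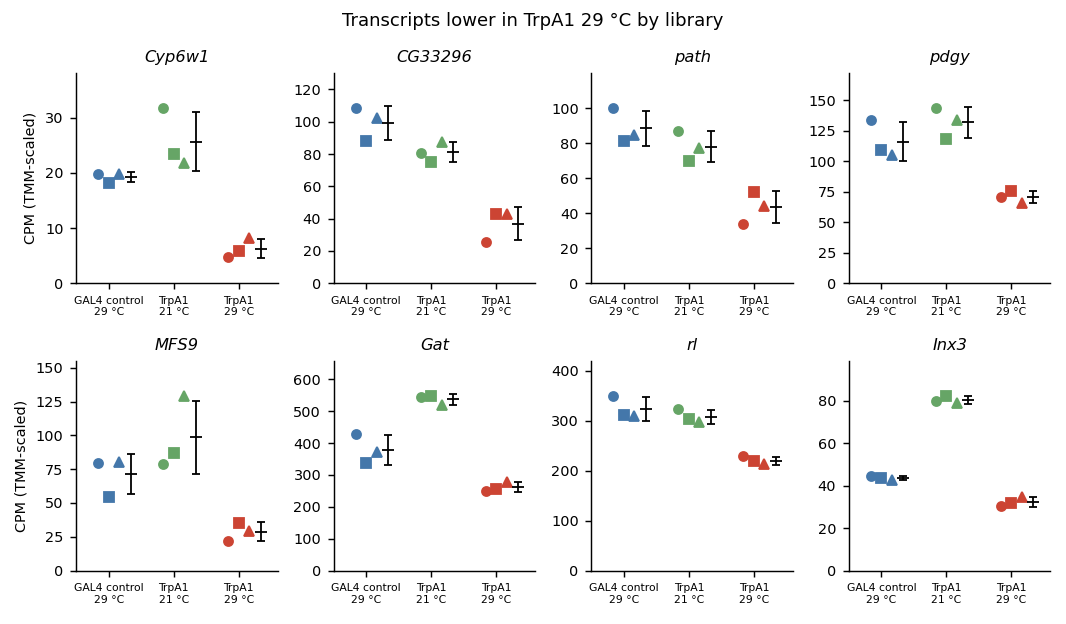
TMM-scaled CPM (vertical axis, from 0) of 8 genes that were lower in TrpA1 29C against both controls, in the 9 libraries by group, with circles, squares and triangles for replicates 1 to 3 and bars for the mean and SD. In each panel the 3 TrpA1 29C libraries lie below all 6 controls, and for Gat and Inx3 the warm control also lies below TrpA1 21C.

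Summed markers of fat body, photoreceptors and muscle were lower in TrpA1 29C, but not against both controls. The fat body list summed to 269 to 472 CPM in TrpA1 29C, 643 to 782 CPM in GAL4 control 29C and 347 to 1186 CPM in TrpA1 21C, with 5 of 10 markers tested and the larval proteins Lsp2 and Lsp1beta at most 11 and 4 counts in a library. Photoreceptor markers summed to 982 to 1282, 1530 to 1797 and 1106 to 1782 CPM, with 17 of 17 tested, and muscle markers to 77.5 to 93.3, 85 to 116 and 120 to 221 CPM, with 13 of 16 tested and TpnC4 at 0. For the first pair of lists TrpA1 29C lay below the warm control without overlap, but overlapped TrpA1 21C. The middle fat body sum was 386 CPM in TrpA1 29C and 376 CPM in TrpA1 21C. Muscle sums lay below TrpA1 21C and overlapped the warm control. Apolpp (listed as Rfabg), the fat body's lipid carrier protein, was called, at a fall of 0.91 (edgeR adjusted p = 0.0228) against GAL4 control 29C. No photoreceptor, muscle or hemocyte marker was called there, where 0.989% of all genes were. Their part in the lower genes was not tested.

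The clock, activity and thermosensory lists held 0, 0 and 1 calls against the control at the same temperature, where 0.989% of all genes were called, so lists of this size would show few calls in any case. The 8 clock genes Clk, cyc, per, tim, vri, Pdp1, cwo and cry lay between a log2 of -0.37 and 0.46. Per, a repressor of the clock, stood at 33.3 ± 3.12 CPM in TrpA1 29C, 34.3 ± 2.09 CPM in GAL4 control 29C and 31.5 ± 7.11 CPM in TrpA1 21C (SD, n = 3 each). Against TrpA1 21C, cyc, tim, Pdp1 and cry fell by 0.45, 0.42, 0.51 and 0.78, and the warm control lay below TrpA1 21C by 0.51, 0.41, 0.52 and 0.49. On log2 TPM with a pseudocount of 1 and no TMM scaling, cry alone of these still passed, at -0.42 (limma adjusted p = 0.0142). In that fit Clk, vri and cwo passed in the other direction. With an offset for transcript length and TMM scaling, 4 of the 8 clock genes were called lower against TrpA1 21C and 0 higher.

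The activity-regulated list, genes known to rise when neurons fire, had 0 of 9 members called against GAL4 control 29C. Hr38, a nuclear receptor that follows firing, read 19.7, 48.8 and 25.0 CPM in TrpA1 29C, 76.8, 82.9 and 87.8 CPM in GAL4 control 29C and 77.0, 31.5 and 13 CPM in TrpA1 21C. Its TrpA1 29C libraries were below those of the warm control, but the difference did not pass (-1.41, SE 0.636, edgeR adjusted p = 0.383). Stripe (sr), an immediate early transcription factor, had the same pattern, at 28.0, 58.5 and 40.9 CPM, then 79.4, 87.6 and 75.9 CPM, then 66.1, 23.3 and 15.1 CPM. CG46385 (listed as CG30497) was above all 6 controls, at 243, 198 and 254 CPM against 81.9 to 188 CPM, but passed only against TrpA1 21C.

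In the thermosensory list, 9 of 13 receptors were tested, and TrpA1 was the only one called against GAL4 control 29C. Gr28b, the warmth receptor of hot cells, stood at 1.56 ± 0.356, 1.79 ± 0.358 and 2.67 ± 0.401 CPM in TrpA1 29C, GAL4 control 29C and TrpA1 21C (SD, n = 3 each), and passed in no comparison. Brv1 had 0 counts and brv2 and brv3 at most 2 in a library. Ir93a, a co-receptor for temperature and humidity, rose by 2.24 against TrpA1 21C (edgeR adjusted p = 0.000531) and stood at 0.06 against the warm control.

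Of the 31 neuropeptide genes, 15 ER stress genes, 21 sleep regulators, 86 cytosolic ribosome genes and 60 nuclear respiratory chain genes tested, 0 were called against GAL4 control 29C, near the 0.989% of all genes. Against TrpA1 21C, where 17.6% of all genes were lower, 74 ribosome genes, 51 respiratory chain genes, all 13 mitochondrial genome genes and 18 neuropeptide genes fell. The warm control alone gave 72, 53, 13 and 20 such calls against TrpA1 21C. With an offset for transcript length, the counts against TrpA1 21C were 44, 27, 12 and 14, and on log2 TPM with a pseudocount of 1 they were 34, 22, 12 and 6, with list medians below 0 on both.

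**Figure D5:**
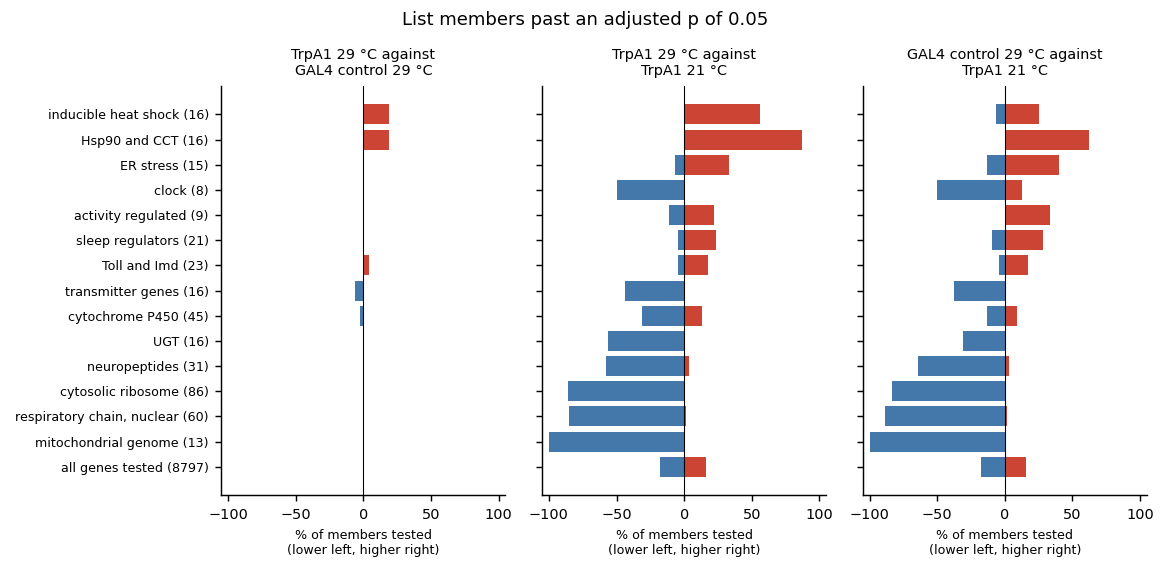
Bars give the percent of each list's tested members (number in brackets) past an adjusted p of 0.05, higher to the right in red and lower to the left in blue, in 3 comparisons. Against the control at the same temperature, few bars appear, with 3 of 16 members higher in each chaperone list, while the other panels, which share TrpA1 21C, carry large bars.

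Genes called against GAL4 control 29C but not against both controls with the same sign numbered 41. For 38 of these, GAL4 control 29C was also called against TrpA1 21C, on the same side as against TrpA1 29C. Ork1, a potassium leak channel that quiets neurons, read 24.4, 29.8 and 30.8 CPM in TrpA1 29C, 49.6, 42.7 and 45.3 CPM in GAL4 control 29C and 30.8, 34.8 and 29.6 CPM in TrpA1 21C. It was called against the warm control (-0.69, SE 0.117, edgeR adjusted p = 0.0207), but both groups labelled TrpA1 overlapped. The warm control was also above TrpA1 21C, by 0.53 (edgeR adjusted p = 0.00583). The insulin-pathway transcription factor foxo stood at 15.8 ± 1.68, 26.4 ± 0.307 and 19.9 ± 2.42 CPM. It fell by 0.74 against GAL4 control 29C (edgeR adjusted p = 0.0207), with an edgeR adjusted p of 0.0564 against TrpA1 21C. For foxo too, the warm control was above TrpA1 21C, by 0.40 (edgeR adjusted p = 0.0276). Foxo was not among the genes chosen by the naming rule and was picked after its values were seen.

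Against TrpA1 21C the largest falls and rises recurred in the warm control. HmgZ, a DNA-bending chromatin protein, read 45.7, 44.9 and 45.8 CPM in TrpA1 29C, 59.5, 62.0 and 51.2 CPM in GAL4 control 29C and 393, 383 and 510 CPM in TrpA1 21C. The fall of 3.24 stood beside one of 2.90 between the controls, and TrpA1 29C did not pass against the warm control (edgeR adjusted p = 0.216). Strica, a caspase gene, read 34.3, 24.5 and 33.2 CPM, then 19.6, 25.8 and 26.9 CPM, then 2.93, 1.29 and 2.71 CPM in the same order of groups, with a rise of 3.71 against TrpA1 21C. CG5618 read 276, 167 and 228 CPM in TrpA1 29C, 110, 117 and 131 CPM in GAL4 control 29C and 23.9, 15.7 and 15.5 CPM in TrpA1 21C. It was above all 6 controls and came just outside the rule, at 0.91 against the warm control (edgeR adjusted p = 0.0533).

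Whether a response differed in this line was tested against the mean of 3 other wake-promoting lines, R21H11, R65H02 and R60F09, in a fit of 36 libraries and 9452 genes. The difference of responses was called for 1365 genes (14.4%) when measured against GAL4 controls, for 5 genes (0.0529%) when measured against TrpA1 21C, and for CenG1A and CG12768 (0.0212%) in both with the same sign. None of the 46 genes was called in both. The count of 1365 was 6, 390 and 29 without GAL4 control replicates 1, 2 and 3 of the hot cell line, and 6, 136 and 8 without its TrpA1 29C replicates 1, 2 and 3. The count of 5 was 37 without TrpA1 21C replicate 2 of the hot cell line and 0 without replicate 3. Against GAL4 controls alone, 6 of the higher genes, among them gt, stv and Hsc70Cb, and 9 of the lower genes, among them CG33296, path and pdgy, were called. The 46 genes were chosen on the hot cell part of that same contrast, so these calls are not separate support for a line difference. Cyp6w1 had a difference of -1.09 (edgeR adjusted p = 0.0326) against GAL4 controls and -1.22 (edgeR adjusted p = 0.139) against TrpA1 21C. Grass differed by 0.31 and 0.22 and Hsp68 by 0.47 and 0.32, with no edgeR adjusted p below 0.325.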

How the data were processed

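Brain RNA was sequenced in 72 libraries, of which the 9 of the hot cell line are reported. Per the labels, PicoPure was the extraction kit and NEBNext Ultra II the library kit. The submitters' processing notes name kallisto 0.46.1, and the deposited table holds expected counts per gene made by the authors. A second deposited table gives the same genes in TPM, which is corrected for length by the authors' software and scaled to 1000000. The genome build, the annotation and the use of strand are not given in the sources used here, so no coordinates or sequences are printed, and reads of overlapping, antisense or near-identical genes may be shared.

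Of 13898 listed genes, 12411 carried a current symbol, 1460 matched through a synonym and 27 did not match. In the 9 libraries 88.9% of the expected counts lay within 0.02 of a whole number, and all were rounded. After filterByExpr and TMM scaling, the 3 groups were fitted together in edgeR 4.0.16 (R 4.3.3) with the robust quasi-likelihood F-test, with Benjamini-Hochberg adjustment over 8797 genes and a threshold of 0.05. The standard error is the log2 change divided by the square root of F. The test of line differences used the 36 libraries of the 4 wake-promoting lines and required both contrasts. The fits were tested on simulated data. With 3 pools a group, intervals for single genes were left to these fits. The total counts per library bound the precision of low genes, and the floor of 3 counts covers counting error only.

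Alternatives were DESeq2 1.42.0, RLE scaling, no filter, limma 3.58.1 on log2 TPM with a pseudocount of 1 or 0.1 (TPM of at least 1 in 3 libraries, or no filter), a 1.5-fold requirement, other sets of libraries, the replicate number as a block, and an offset for transcript length (lowess, span 0.3), with length read from the ratio of expected count to TPM. Named were TrpA1 and w; up to 15 genes in each direction outside the range of the 6 controls, by the smaller of both changes; up to 8 others in each direction per comparison; and list members that passed. Hsp83, Hsf, DnaJ-1, y, CG6142, foxo, Picot, REPTOR, CenG1A and CG12768 were chosen after their values were seen. The comparison, gene lists and rules were chosen with earlier results of these data known. Of 922 list members, 1 was not analysed here, and some called genes are not reported here. Python 3.11.15, pandas 2.3.3 and matplotlib 3.10.9 were used for joins and plots.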

Additional observations from a re-analysis of the deposited data

Results flagged for a closer look

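CenG1A and CG12768 were the only genes whose response in the hot cell line differed from the mean of the other 3 wake-promoting lines against both controls in the edgeR fit of 36 libraries. CenG1A, an Arf GTPase-activating gene, stood at 282 ± 6.88 CPM in TrpA1 29C, 244 ± 4.54 CPM in GAL4 control 29C and 167 ± 13.2 CPM in TrpA1 21C of the hot cell line (SD, n = 3 each). Its means in the same order were 120, 141 and 140 CPM in R21H11, 154, 205 and 141 CPM in R65H02, and 152, 141 and 119 CPM in R60F09. The difference of log2 changes was 0.39 (SE 0.102, edgeR adjusted p = 0.0267) against GAL4 controls and 0.68 (SE 0.102, edgeR adjusted p = 0.00213) against TrpA1 21C.

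CG12768 stood at 34.5 ± 3.01, 29.5 ± 2.99 and 32.8 ± 1.34 CPM in the hot cell line (SD, n = 3 each). Its level at 21 °C was 41.5 to 41.7 CPM in the other lines, where TrpA1 29C means were 23.1 to 29.4 CPM. The difference was 0.38 (SE 0.131, edgeR adjusted p = 0.0496) and 0.70 (SE 0.13, edgeR adjusted p = 0.0217). Within the hot cell line, neither gene passed against GAL4 control 29C (edgeR adjusted p = 0.284 and 0.392). Both calls were lost when any GAL4 control or TrpA1 29C library of the line was left out. The 12 groups differ in line and cross as well as in the neurons activated, and these cannot be told apart.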

How the results depend on the processing

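Counts of calls moved more than directions did. Against both controls the 46 genes became 135 with DESeq2, 44 with RLE scaling, 50 with no filter, 213 with only the groups compared, 69 with 36 libraries and 255 with the length offset. They became 22, 21 and 14 with limma on log2 TPM (pseudocount 1, 0.1, and 1 with no filter), and 2 with a 1.5-fold requirement. Of the 46, 45 remained with DESeq2, 43 with the length offset and 13 with log2(TPM + 1). Against GAL4 control 29C the 87 became 234 with DESeq2, 597 with only the groups compared, 135 with 36 libraries, 400 with the offset, 41, 40 and 27 with log2 TPM and 10 with the 1.5-fold requirement. That requirement left 188 against TrpA1 21C and 136 between the controls. The line difference of 2 genes became 46 with DESeq2, 1 with RLE scaling, 1 with no filter and 0 with the offset.

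Leaving out single libraries gave 7 to 232 genes against both controls, 18 to 460 against GAL4 control 29C, 1660 to 3557 against TrpA1 21C, 1635 to 3435 between the controls and 0 to 28 for the line difference.

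Libraries of the same number did not deviate together (correlations -0.116 to 0.058), so the numbers do not pair the samples. With the replicate block, 20 genes were called against both controls and 43 against GAL4 control 29C, and 187 and 276 with the block and the offset.

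On log2 TPM, Jra against TrpA1 21C turned from -0.33 to 0.0166, 0.0168 and 0.0166. The cause was not tested.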
